A study of Homo sapiens with 6 samples.

Results

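The endoplasmic reticulum (ER) folds secreted and membrane proteins with a set of abundant chaperones, and the mRNAs of 10 genes of this set were followed here through 6 RT-stop libraries. The genes were listed by function, and the RefSeq transcript carrying each in the deposited files was taken, so the set holds 10 of the 15739 transcripts with a listed stop. HSPA5, HSP90B1, HYOU1, CALR, CANX, P4HB, PDIA3, PDIA4 and PDIA6 encode chaperones or protein disulfide isomerases, and XBP1 encodes a transcription factor of the unfolded protein response. RNA came from U2OS, a human osteosarcoma cell line, and was poly(A)-selected. RT-stop profiling records where reverse transcriptase (RT) halts on an RNA, and dimethyl sulfate (DMS) adds stops at unpaired A and C. DMS also methylates G at a position that a folded RNA G-quadruplex (rG4) protects.

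Without DMS, 1 library was labelled as reverse transcribed in 150 mM K+ and 1 in 150 mM Na+. Another 2 libraries held RNA refolded and modified with DMS in vitro, in 150 mM K+ or in 150 mM Li+. Both of these were reverse transcribed in 150 mM K+. In the remaining pair, living cells received 8% DMS for 5 min, either unstressed in full medium or after 2 h of starvation in Hank's balanced salt solution, and both were reverse transcribed in 150 mM K+. Each condition was 1 library with no replicate, so no p-value is given, no difference between conditions could be checked against a replicate, and all intervals are 95% intervals that cover counting error only. Sample labels and file names contradict each other for the pair without DMS, and these are called the library labelled K+ and the library labelled Na+. The published methods name Li+ and not Na+ for this step, whereas the published results and the sample label name Na+. The cation of that library is thus itself in doubt. The listed stops summed to between 12999691 in unstressed cells and 35371061 in the library labelled K+, and the starved library held 24014417. The U2OS identity was checked with mesenchymal genes, of which 4 of 5 were matched. VIM lay between 2987 and 3827 stops per 1000000 listed stops (SPM), whereas the epithelial gene EPCAM lay between 0.692 and 2.29. SPARC went from 1206 in unstressed to 303 in starved cells. PTPRC, ALB, KRT19, CDH1 and CD3E were not among the matched transcripts, nor was the mesenchymal gene S100A6, so this says nothing about identity.

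HSPA5 (BiP) is the main ER Hsp70. It binds unfolded chains and keeps the stress sensors IRE1, PERK and ATF6 silent until misfolded proteins call it away. HSP90B1 (GRP94) is the ER Hsp90, and HYOU1 (GRP170) is a large Hsp70 relative that acts as a nucleotide exchange factor for HSPA5. CALR and CANX are lectin chaperones that hold glycoproteins with trimmed sugars, and PDIA3 (ERp57) works with them on disulfide bonds. P4HB (PDI), PDIA4 and PDIA6 are further disulfide isomerases. Activated IRE1 cuts a short intron out of XBP1 mRNA, and the protein made from the spliced mRNA, together with cleaved ATF6, raises transcription of this gene set through the ER stress response element.

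Matches to that element in the promoters of the set are shown first. The letters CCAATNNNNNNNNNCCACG were searched on both strands of RefSeq windows from 250 nt before to 50 nt after each gene start (GRCh38.p14), of which 27 of 35116 (0.0769%) held a match. Of the 9 members in that table (all but PDIA3), 6 had a match, in 8 of the 15 windows of these 9 genes. The capitals mark the fixed letters, and each line gives the strand of the match 5′ to 3′.
HSPA5, 66 nt before the start: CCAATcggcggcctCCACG
HSP90B1, 194 nt before: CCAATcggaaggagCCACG
HSP90B1, 89 nt before, opposite strand: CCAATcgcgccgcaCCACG
CALR, 225 nt before, opposite strand: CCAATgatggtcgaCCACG
CANX, 151 nt before: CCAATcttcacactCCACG
PDIA6, 86 nt before: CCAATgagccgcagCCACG
XBP1, 52 nt before: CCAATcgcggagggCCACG
The 3 other genes searched were P4HB, PDIA4 and HYOU1. The match says only that these letters are in the window.

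Strong stops at G in the mRNAs are the second set of sequences on which the results turn. Each line below gives the 30 nt that end at the stop, 5′ to 3′ in the sense of the mRNA, with runs of GG or longer in capitals and the position on GRCh37.
HSPA5 nt 2431, 3′ UTR, exon 8 of 8, chr9:127998666-127998695, minus strand: tctttGGGtGGGGGGGagaagaagaattGG
HSP90B1 nt 2742, 3′ UTR, exon 18 of 18, chr12:104341559-104341588, plus strand: tgtGGGattatGGGtcacaGGaaaaagtGG
CALR nt 1839, 3′ UTR, exon 9 of 9, chr19:13055203-13055232, plus strand: gactGGGccacttctGGGtGGGGcagtGGG
CANX nt 1755, coding, exon 13 of 15, chr5:179151741-179151770, plus strand: aaaGGacaaGGGagatgaGGaGGaGGaaGG
PDIA4 nt 436, coding, exon 2 of 10, chr7:148718174-148718203, minus strand: aGGaGGaGGaGGaGGaagatgatgatgaGG
PDIA6 nt 1203, coding, exon 11 of 13, chr2:10927499-10927528, minus strand: gagaccgcgttGGGGattGGaGGGtttGGG
HYOU1 nt 3348, 3′ UTR, exon 26 of 26, chr11:118916150-118916179, minus strand: tttGGaGGtgtGGagaaGGGGaaGGGaGGG
Their stop counts are given with the strong stops.

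The first comparison asked how large a share of the listed stops each mRNA took in unstressed and starved cells. ER chaperone mRNAs took smaller shares in the starved library. Of the 10 members, 7 were at least 1.5-fold lower in starved than in unstressed cells, and none was 1.5-fold higher. HYOU1, CALR, P4HB and PDIA4 were lowest relative to unstressed cells, followed by PDIA3, HSPA5 and PDIA6. HSP90B1, CANX and XBP1 differed by less than 1.5-fold. For XBP1 this depended on the processing, with a log2 ratio of -0.80 when the starved library was thinned to the unstressed depth and 0.06 with stops at U and G alone. Among the 2665 transcripts with at least 1 stop per nucleotide in each of the 4 libraries not made from treated cells, a minimum that all 10 members passed, 42.6% were at least 1.5-fold lower and 28.9% at least 1.5-fold higher. The share depends on both the amount of an mRNA and how often it stops RT, and fewer mRNA molecules cannot be told apart here from fewer stops per molecule.

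HSPA5 took 796 SPM in the library labelled K+, 805 in that labelled Na+, 835 and 825 in vitro in K+ and Li+, 695 in unstressed cells and 239 in starved cells. The first 5 values lay close together, and only the starved library stood apart. The starved share was 2.91-fold lower than the unstressed share (interval 2.81 to 3.01). HYOU1, its exchange factor, was also lowest in starved cells, but its unstressed value was above the other 5. It took 146 and 157 SPM without DMS, 138 and 152 in vitro, 197 in unstressed cells and 10.5 in starved cells, from 2567 and 253 listed stops in the treated cells. Its listed share was 18.7-fold lower in starved cells (16.5 to 21.4). With totals rebuilt to include nucleotides under the listing limit of 3 stops the log2 ratio of HYOU1 was -2.88 rather than -4.23, so the limit moves the size of its difference.

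The lectin chaperones split. CALR took 858 and 915 SPM without DMS, 914 and 869 in vitro, 1194 in unstressed cells and 195 in starved cells. CALR was thus 6.12-fold lower in starved cells (5.92 to 6.33), and its unstressed value was above its other values. Its membrane-bound relative CANX took 1033 and 1024 without DMS, 1035 and 969 in vitro, 818 in unstressed cells and 782 in starved cells. The in-cell values of CANX were both below the others and differed by 1.05-fold (1.02 to 1.07). HSP90B1 took 441, 423, 422 and 414 SPM in the same order, then 332 and 316 in unstressed and starved cells. HSP90B1 therefore resembled CANX, with a 1.05-fold difference (1.01 to 1.09).

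All 4 disulfide isomerases were lower in starved cells. P4HB took 558, 577, 648 and 599 SPM in the libraries not made from treated cells, 897 in unstressed and 151 in starved cells, a 5.94-fold difference (5.72 to 6.16). PDIA4 took 96.3, 98.4, 94.0 and 104, then 83.6 and 17.5 in the treated cells, a 4.77-fold difference (4.26 to 5.35). PDIA3 took 149.5, 158, 159 and 162, then 217 and 68.3, a 3.18-fold difference (2.995 to 3.386). In each of these genes the starved value was the lowest of the 6. PDIA6 took 631, 622, 647 and 635, then 734 and 290.2, a 2.53-fold difference (2.45 to 2.61). XBP1, the transcription factor, took 72.7, 65.8, 69.4 and 68.0 SPM, then 85.2 in unstressed and 61.0 in starved cells, a 1.40-fold difference (1.29 to 1.51). Stops were listed at only 824 of the 3726 nt of PDIA3 in any library, and its values stand for that part. The reason was not tested.

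**Figure D1:**
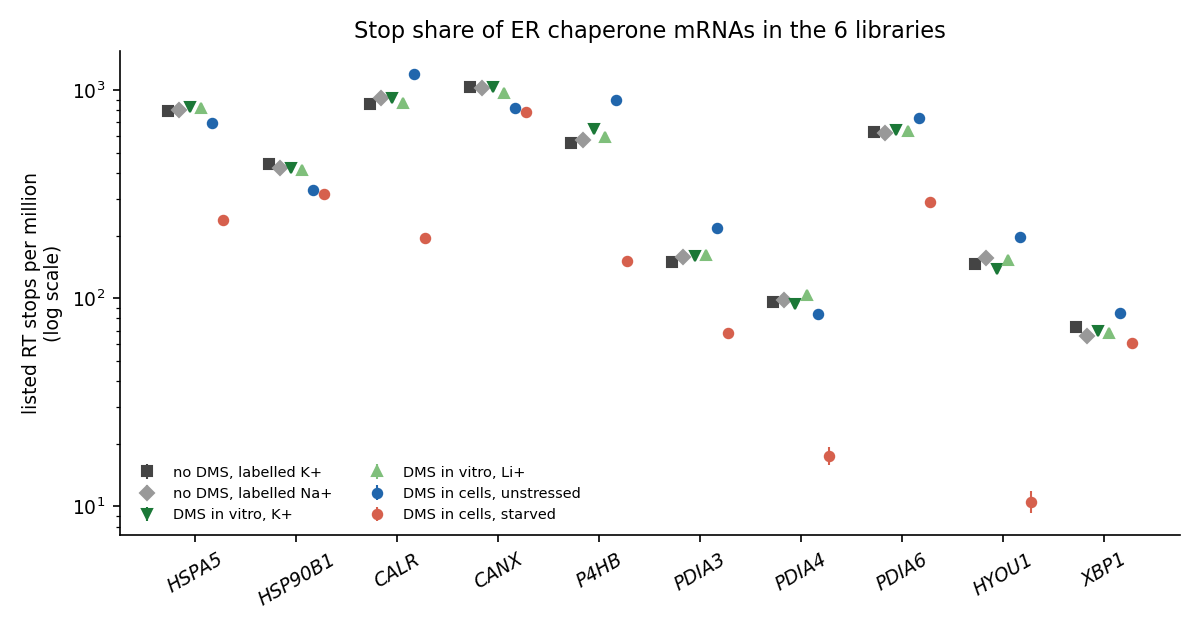
Listed RT stops per 1000000 (SPM, log scale) of the 10 ER chaperone mRNAs in the 6 libraries, with 95% counting intervals where they are wider than the marker. The starved library is the lowest of the 6 for every gene, by a wide margin for HYOU1 at 10.5, P4HB at 151 and CALR at 195 SPM, and close to the unstressed library for HSP90B1 and CANX.

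Shares moved with GC content across the whole transcriptome. Over the 1363 transcripts with at least 1 stop per nucleotide in both in-cell libraries, the log2 ratio of starved to unstressed shares had a median of -0.06 and an SD of 1.10, and its Pearson correlation with transcript GC content was -0.69 across transcripts, which share the same 2 libraries and are not independent. The SD was 0.08 for in vitro K+ over Li+ and 0.11 between the libraries without DMS. Median log2 ratios went from 0.89 in the 208 transcripts under 40% GC to -1.33 in the 290 transcripts over 55%. Of the members, 6 passed this minimum (HSPA5, HSP90B1, CALR, CANX, P4HB and PDIA6) and 4 of these 6 were at least 1.5-fold lower, against 35.4% of all 1363, and none was at least 1.5-fold higher, against 29.3%. XBP1 was just under the minimum in unstressed cells with 0.998 stops per nucleotide. PDIA3 was under it in starved cells with 0.719, PDIA4 in both with 0.678 and 0.309, and HYOU1 in both with 0.824 and 0.201.

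GC content differed among the members, from 39.6% in CANX and 41.8% in HSP90B1 to 55.4% in HYOU1 and 57.2% in P4HB. These 2 members with the lowest GC content, CANX and HSP90B1, were also those whose shares differed least. All 10 lay below a quadratic fit of the log2 ratio on GC content, an alternative added after seeing the data, and 48.3% of the 1363 transcripts did. At least 1.5-fold below the fit were 8 members, 5 of them among the 6 past the minimum, against 23.7% of the 1363 transcripts past it. Relative to the fit the log2 difference was -3.31 for HYOU1, -1.95 for PDIA3, -1.86 for CALR, -1.69 for PDIA4, -1.55 for HSPA5, -1.47 for P4HB and -1.42 for PDIA6. CANX at -0.74 joined this group, while HSP90B1 was at -0.52 and XBP1 at -0.16. The part of GC content in the difference of the shares was not tested beyond this fit.

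**Figure D2:**
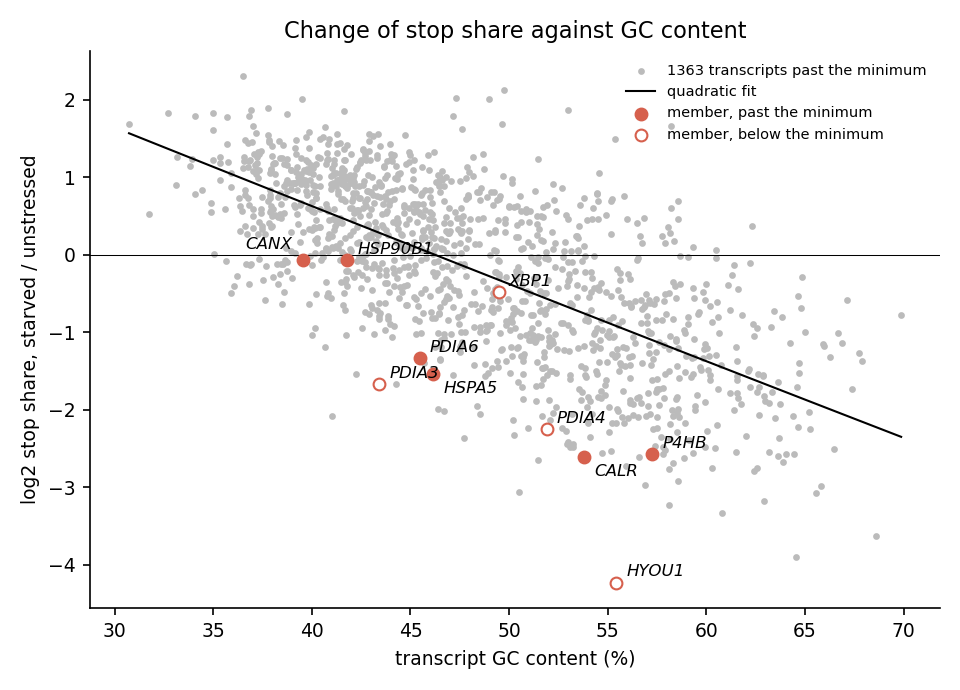
Log2 ratio of the stop share in starved to unstressed cells (vertical) against transcript GC content in percent (horizontal) for 1363 transcripts, with a quadratic fit and the 10 members, open circles marking members under the minimum. All 10 members lie below the fitted line, with HYOU1 lowest at -4.23 and XBP1 nearest to the line.

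Other genes of ER folding were read from lists of the pathway. Of 22 ER folding cofactors, 6 passed the minimum, of which 4 were at least 1.5-fold lower and none higher. Over all 1363 transcripts past the minimum 35.4% were lower and 29.3% higher, and relative to the fit on GC content 323 were at least 1.5-fold below and 317 at least 1.5-fold above. Relative to the fit 3 of the 6 cofactors were at least 1.5-fold below and none above. MANF, a secreted ER stress protein, went from 190.4 to 73.5 SPM, ERP29 from 243 to 127, and FKBP2, a prolyl isomerase, from 58.1 to 25.2. MANF lay 1.01 below the fit on GC content on the log2 scale, whereas FKBP2 lay 0.02 above it. For the translocon and oligosaccharyltransferase, which thread chains into the ER and attach sugars, 13 of 22 passed, with 5 lower and 3 higher. SEC61A1, the channel itself, went from 516 to 94.9, DDOST from 346 to 93.8, and RPN2 from 488 to 259.8 SPM. The list's median log2 ratio was -0.03, against -0.06 over all transcripts past the minimum, and relative to the fit 4 of its genes were at least 1.5-fold below and 3 above.

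In ER-associated degradation, 5 of 20 passed, with 2 lower and 1 higher, and relative to the fit on GC content 3 were at least 1.5-fold below and none above. VCP, the ATPase that pulls substrates out of the membrane, went from 971 to 155, and SELENOK from 58.2 to 100.5 SPM. Of 14 sensors and factors of the unfolded protein response, only 2 passed and 1 was lower. Relative to the fit neither was at least 1.5-fold below or above it. Cytosolic chaperones, in a list that also held the mitochondrial HSPD1, HSPE1 and HSPA9, were the nearest comparison outside the ER. Of 24, 20 passed, with 5 lower and 4 higher and a median log2 ratio of 0.16. Relative to the fit their median was -0.23, so the sign turned, with 5 at least 1.5-fold below it and 2 at least 1.5-fold above. HSPB1 went from 1016 to 214, DNAJB1 from 289 to 61.4 and STIP1 from 711 to 183 SPM. Relative to the fit their log2 differences were -0.36, -1.59 and -1.35, so HSPB1 was then within 1.5-fold. The 6 ER members past the same minimum had a median log2 ratio of -1.44, and -1.44 relative to the fit.

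By the distance between log2 shares centred over the 6 libraries, the transcripts outside the set most like HSPA5 included SSRP1 (0.12) and TKT (0.16), where the median transcript past the minimum was at 1.73. SSRP1 took 558 SPM in unstressed and 191 in starved cells, close in ratio to HSPA5. SSRP1 is a subunit of a histone-handling complex, and TKT encodes transketolase.

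The second comparison concerned where the stops fell. In treated cells a larger share of the stops lay near the 3′ end in use than without DMS or in vitro. This end was taken as the position before which 99% of the stops without DMS lay. In HSPA5 the last 500 nt held 28.3% and 28.5% of stops without DMS, 26.6% and 27.0% in vitro, 56.7% in unstressed and 64.5% in starved cells. By this measure the end in use was nt 2535 of an annotated 3965 in HSPA5 and nt 4073 of 4881 in CANX, and a few stops lay after it, 205 in unstressed and 138 in starved cells for HSPA5. The last 500 nt of HYOU1 held 50.0% of stops in unstressed and 91.3% (231 of 253) in starved cells, and those of PDIA4 74.8% and 96.4%. CANX at 31.8% and 32.1% and XBP1 at 68.8% and 67.5% hardly differed between the treated cells, and HSP90B1 went the other way, from 70.2% to 63.2%. The median over 911 transcripts long enough was 55.8% in unstressed and 55.4% in starved cells. With stops of the last 500 nt alone, an alternative added after seeing the data, the same count of 7 members was at least 1.5-fold lower, against 35.8% of transcripts past the minimum. PDIA6 was then at -0.78 and HYOU1 at -3.40 on the log2 scale.

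**Figure D3:**
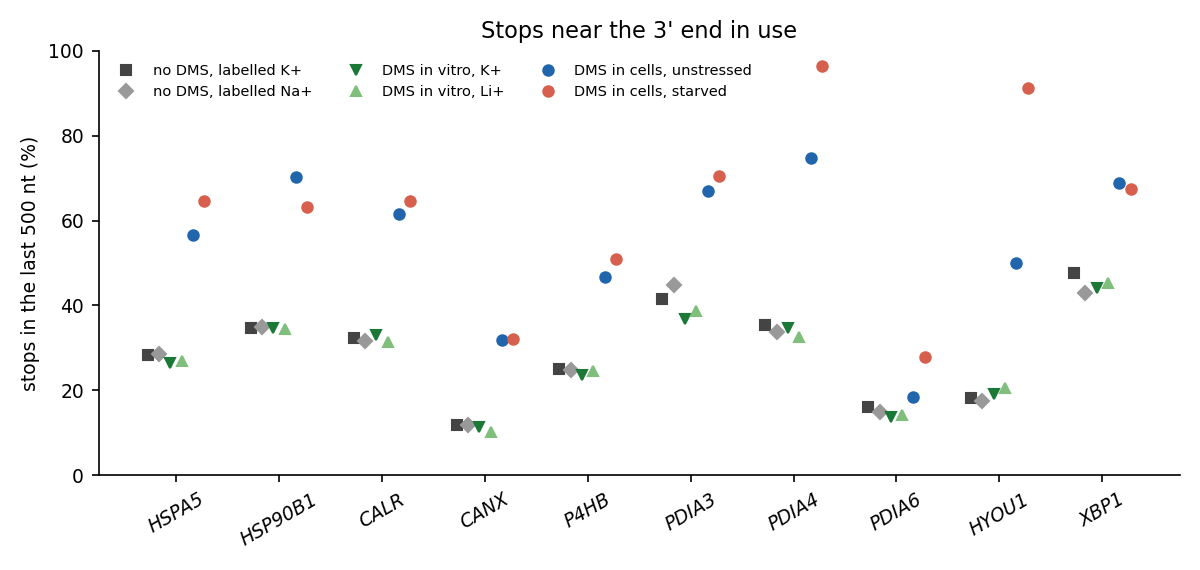
Percentage of listed stops within the last 500 nt before the 3′ end in use for the 10 mRNAs in the 6 libraries. The 4 libraries not made from treated cells lie together in each gene, and both in-cell libraries lie above them, with HYOU1 at 50.0% and 91.3% and CANX at 31.8% and 32.1%.

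DMS marks A and C, and the share of stops at these bases was followed. It depends also on the stops at G and U, and it was not tested as a measure of DMS strength. The members had 41.8% to 54.0% of their stops at A or C without DMS and 76.1% to 89.9% in vitro. In unstressed cells they had 82.5% to 95.6%, and in starved cells 69.9% to 87.4%. All 10 members were lower in starved cells, as were 99.9% of the 1363 transcripts, so the members did not stand apart in direction. HSPA5 went from 88.4% (Wilson interval 87.7 to 89.0) to 77.0% (75.9 to 78.1), and XBP1 from 93.9% to 83.5%. HYOU1 differed least, by -3.72 percentage points, and PDIA3 most, by -13.4. The median over members was -10.1 percentage points, against -11.8 over all transcripts.

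The share at C was lower in starved cells in all 10 members, and the share at A was lower in 5 and higher in 5. Over the 1363 transcripts the share at C was lower in 99.4% and at A in 77.1%, so at C the members went with the rest. In HSPA5 the share of stops at C went from 19.8% to 11.4% and at A from 68.5% to 65.6%, while G went from 9.19% to 18.4%. In CALR the share at C went from 33.2% to 21.6% and at A from 49.4% to 54.2%. In P4HB the share at C went from 35.6% to 21.2%. 

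A/C profiles ask whether the same nucleotides are reached by DMS in both states. Over A and C with at least 20 stops summed over the in-cell libraries, 25.8% of 1524 nucleotides of the members differed at least 2-fold in enrichment over the transcript's A/C mean, 187 higher in starved and 206 lower. Across all transcripts 24.1% did, and in vitro K+ against Li+, a pair with no starvation, 7.09% of the members' nucleotides did against 7.61% of all. The members' share was thus close to that of all transcripts, but with the starved library thinned to the unstressed depth it was 29.9% against 24.0%. CALR had the most calls by share among the members with over 100 nucleotides, 93 of 238 or 39.1%, and HSP90B1 the fewest, 23 of 124 or 18.5%. Their depth differed, with 15519 listed stops in unstressed and 4684 in starved cells for CALR and 4318 and 7583 for HSP90B1. The part of depth in this ranking was not tested. HSPA5 had 46 of 191 and CANX 113 of 502.

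At C, 31.2% of 356 nucleotides of the members were at least 2-fold lower in starved cells and 4.49% higher. At A, 8.13% of 1168 were lower and 14.6% higher. Over all transcripts 22.1% of C nucleotides were lower and 5.83% higher, and 7.43% of A nucleotides were lower and 15.4% higher. The members were close to these shares at A, and at C more of their nucleotides were lower. Single nucleotides show the range. In HSPA5, C2349 of the 3′ UTR went from 48 stops without starvation to 6 with it, an enrichment of 10.9 and 2.34, while A1667 of the coding sequence went from 4 to 16, an enrichment of 0.908 and 6.25. In CALR, A1008 of the coding sequence had 66 and 4 stops, an enrichment of 5.02 and 0.989, and C1853 of the 3′ UTR had 4 and 16, an enrichment of 0.304 and 3.96. These were chosen as the most different in each direction, so their values are a description.

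Read against each other across nucleotides, raw counts at A and C correlated between unstressed and starved cells with a Pearson r of 0.74 in HSPA5 (816 nucleotides), 0.83 in HSP90B1, 0.69 in CALR, 0.71 in CANX, 0.61 in P4HB and 0.74 in PDIA6. In vitro K+ and Li+ gave 0.88 in HSPA5 and 0.91 in CALR. Unstressed cells against in vitro K+ gave 0.50 in HSPA5 and 0.57 in CALR. All such values are across nucleotides of 1 mRNA, which share base preference and library. PDIA4, HYOU1 and XBP1 had only 10 or 11 nucleotides past 20 stops, and their profiles could not be read at this depth.

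The 5′ UTR of HSPA5, 261 nt long and 63.6% GC, has long been studied for internal initiation and was examined for DMS reactivity. Both windows of 30 nt below had the most A/C stops in vitro in K+, with A and C listed in unstressed cells in capitals, on GRCh37.
HSPA5 nt 55 to 84, exon 1, chr9:128003583-128003612, minus strand: aAgaCagcacagACagAttgacctAttggg
HSPA5 nt 129 to 158, exon 1, chr9:128003509-128003538, minus strand: agaCctgcccttcgcCtggttcgtggcgcC
The window at nt 55 held 138 A/C stops in vitro with K+ and 195 with Li+, against 21 in unstressed and 3 in starved cells. The window at nt 129 held 109, 140, 11 and 0.

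Of the 114 A and C in this 5′ UTR, 70 were listed in vitro with K+, 80 with Li+, 26 without starvation and only 1 after it, with 614, 913, 95 and 3 stops. The level per A/C nucleotide relative to the coding sequence was 0.407 in the library labelled K+, 0.416 in that labelled Na+, 0.478 and 0.506 in vitro, 0.183 in unstressed and 0.0102 in starved cells. The ratio was lower in cells than in the other libraries, as was the median over all transcripts, and with unlisted nucleotides counted as 2 stops it was 0.529 and 0.534 in vitro, 0.443 in unstressed and 0.532 in starved cells. Since unlisted nucleotides may hold up to 2 stops each, up to 226 stops could go unseen in starved cells. At the unstressed ratio 53.7 would fall there, so a difference between the treated cells was not detectable at this depth. Median ratios over 979 transcripts were 0.428, 0.455, 0.467, 0.488, 0.312 and 0.215 in the same order. CALR had ratios of 0.507 in unstressed and 0.158 in starved cells from 143 and 12 stops, and P4HB 0.237 and 0.0865 from 85 and 9.

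In vitro, 31 of the 114 A/C nucleotides had at least 20 stops in the pair of cations and could be compared. Of these, 1 was at least 2-fold higher in K+ and 2 in Li+ after scaling to the coding sequence. A231 had 7 stops in K+ and 32 in Li+, and C221 had 4 and 16. A187 was the one higher in K+, with 13 and 9.

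**Figure D4:**
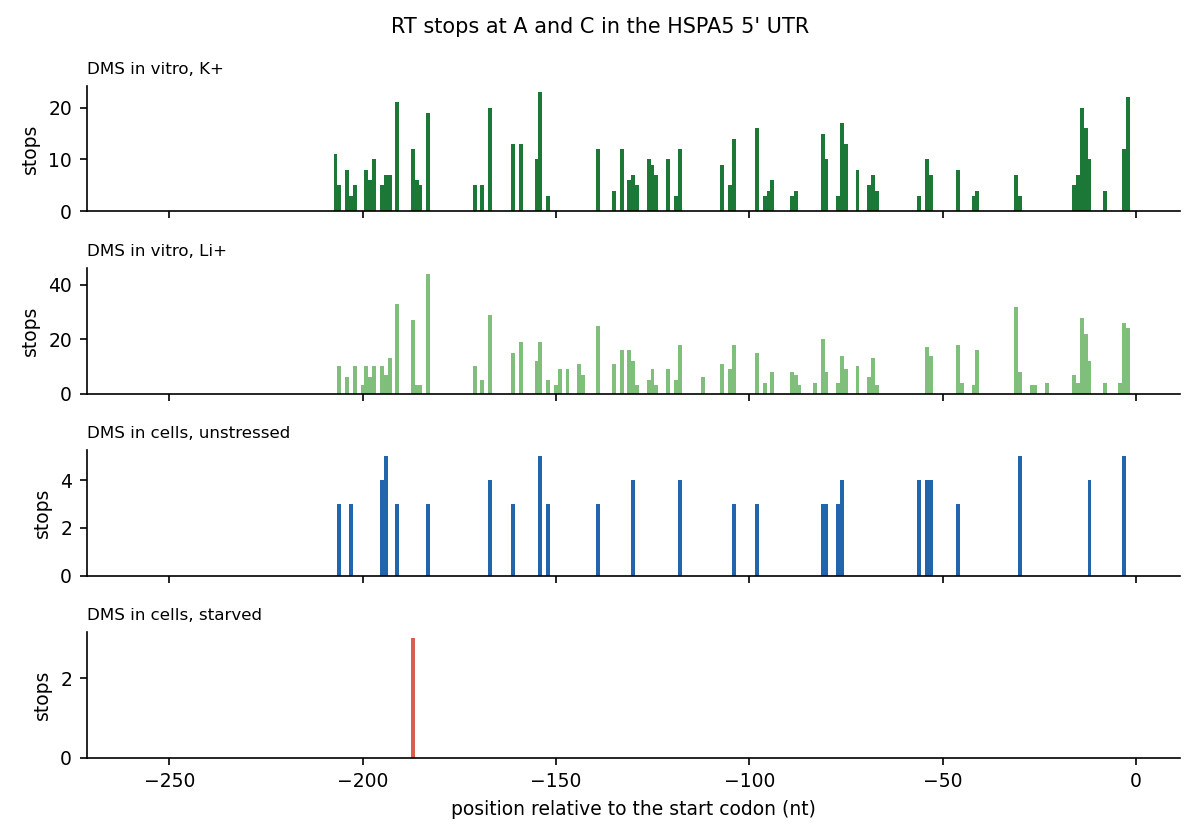
RT stops at A and C of the HSPA5 5′ UTR (vertical, number of stops, with a scale for each library) by position relative to the start codon in nt (horizontal), in the 4 DMS libraries. Stops were listed at 70 and 80 nucleotides in vitro, at 26 in unstressed cells and at 1 in starved cells.

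XBP1 carries the hairpin loops that IRE1 cuts. The deposited transcript is the spliced form, which lacks 26 nt of chr22:29192116-29192141 (GRCh37, minus strand). Each 30-nt stretch below has the 7-nt loop in capitals, as in the unspliced and the spliced mRNA.
XBP1 upstream loop, unspliced, chr22:29192127-29192156: gggtctgctgagtCCGCAGCactcagacta
XBP1 downstream loop, unspliced, chr22:29192106-29192135: ctcagactacgtgcacctCTGCAGCaggtg
XBP1 junction, spliced, nt 526 to 555: gggtctgctgagtCCGCAGCaggtgcaggc
At the 5 A and C of the joined loop, 7 stops were listed in the library labelled K+, 0 in that labelled Na+, 10 and 10 in vitro, 3 in unstressed and 0 in starved cells. In the 15 nt before the junction there were 3 stops in the library labelled K+ and none in the other 5. The 60 nt after the junction held 52 and 25 stops without DMS, 46 and 48 in vitro, 12 in unstressed and 21 in starved cells. Without a mismatch, a read of unspliced mRNA that crosses the junction cannot map to this transcript. The counts are too few to compare the loops between unstressed and starved cells.

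Strong stops were those with an enrichment E over the transcript mean of at least 10. A folded rG4 is known to halt RT at the G of its 3′ end when K+ is present, but a strong stop at G need not be one. The members past 1 stop per nucleotide had 68 strong stops in the library labelled K+, 21 of them at G, and 75 in the library labelled Na+, 36 at G. These were 30.9% and 48.0% of their strong stops, against 25.7% and 57.1% over all transcripts past that minimum. Of G alone, 16 in each library lay in PDIA3, where stops were listed at few nucleotides, and 5 and 20 in the other members. In vitro and in cells, strong stops were mostly at A or C. Those at G numbered 4 and 2 in vitro, 10 in unstressed and 4 in starved cells, or 3.92%, 1.87%, 3.83% and 3.05% of the strong stops, against 2.93%, 1.53%, 1.04% and 3.27% over all transcripts. PDIA3 passed the minimum of 1 stop per nucleotide in unstressed but not in starved cells, and without it there were none in vitro, 1 in unstressed and 4 in starved cells, so the direction turned. P4HB had no strong stop at G in any library.

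The 2 libraries without DMS gave 42 strong stops at G in the members, in either library. By the labels, 3 had an E at least 2-fold higher with K+ than with Na+, and all 3 were in PDIA3. With the opposite assignment, that of the file names, 17 would be K+-dependent, with a 2-fold or greater excess of E under the Na+ label, 15 of them outside PDIA3. Over transcripts past the minimum in both in-cell libraries, 13 of 1846 strong stops at G (0.704%) were stronger in the library labelled K+ and 1057 (57.3%) in that labelled Na+. The paper reports that stops stronger in K+ than in Na+ lay mostly at G. In these libraries the excess at G was under the Na+ label. Which assignment is right was not settled here.

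HSPA5 had one site of each kind. At nt 2431 it had 3 stops in the library labelled K+ and 258 in that labelled Na+, 0 and 10 in vitro, and none listed in cells. At nt 2342 it had 83 and 117 stops, 48 and 58 in vitro, 26 in unstressed and 35 in starved cells, with E between 8.62 and 20.3 in all 6 libraries. The first site depended on the library and the second was a stop in every library.

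CALR had strong stops in its coding sequence and its 3′ UTR. At nt 1239, in its coding sequence, it had 9 stops in the library labelled K+ and 258 in that labelled Na+ (E of 0.568 and 16.1), 5 and 11 in vitro, 4 in unstressed and none listed in starved cells. At nt 1839 in the 3′ UTR it had 216 and 553 stops, 38 and 58 in vitro, 16 in unstressed and 36 in starved cells. Outside PDIA3, this is the one site that reached E of at least 10 in starved cells and in both libraries without DMS but not in unstressed cells.

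HYOU1 had the highest E outside PDIA3. At nt 3348 of its 3′ UTR it had 13 and 266 stops without DMS (E of 7.82 and 154), 6 and 14 in vitro, and none listed in cells. Another 7 strong stops at G lay along HYOU1, at 1559, 1567, 3269, 3270, 3275, 3347 and 3913, and 4 of these were at least 2-fold stronger in the library labelled Na+. PDIA6 at nt 1203 had 8 and 181 stops, CANX at nt 1755 6 and 100, HSP90B1 at nt 2742 20 and 67, and PDIA4 at nt 436 0 and 17. XBP1 at nt 1135 had 20 and 19, so it was alike in both.

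These sites shared a feature that the rule did not use. The letters GG, in 4 or more separate runs within the 30 nt ending at the stop, on the mRNA strand, were present at 14 of the 17 sites stronger in the library labelled Na+. HSPA5 nt 2431 had 3 such runs and was not among the 14. Among the other 25 strong stops at G, 1 held them, and among all 7975 such windows that end at a G in the members, 11.6% did. Runs of GGG or longer, 4 of them, were at 1 of the 17 sites, in CALR at nt 1839. Sites that overlap share sequence, so these windows are not independent.

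**Figure D5:**
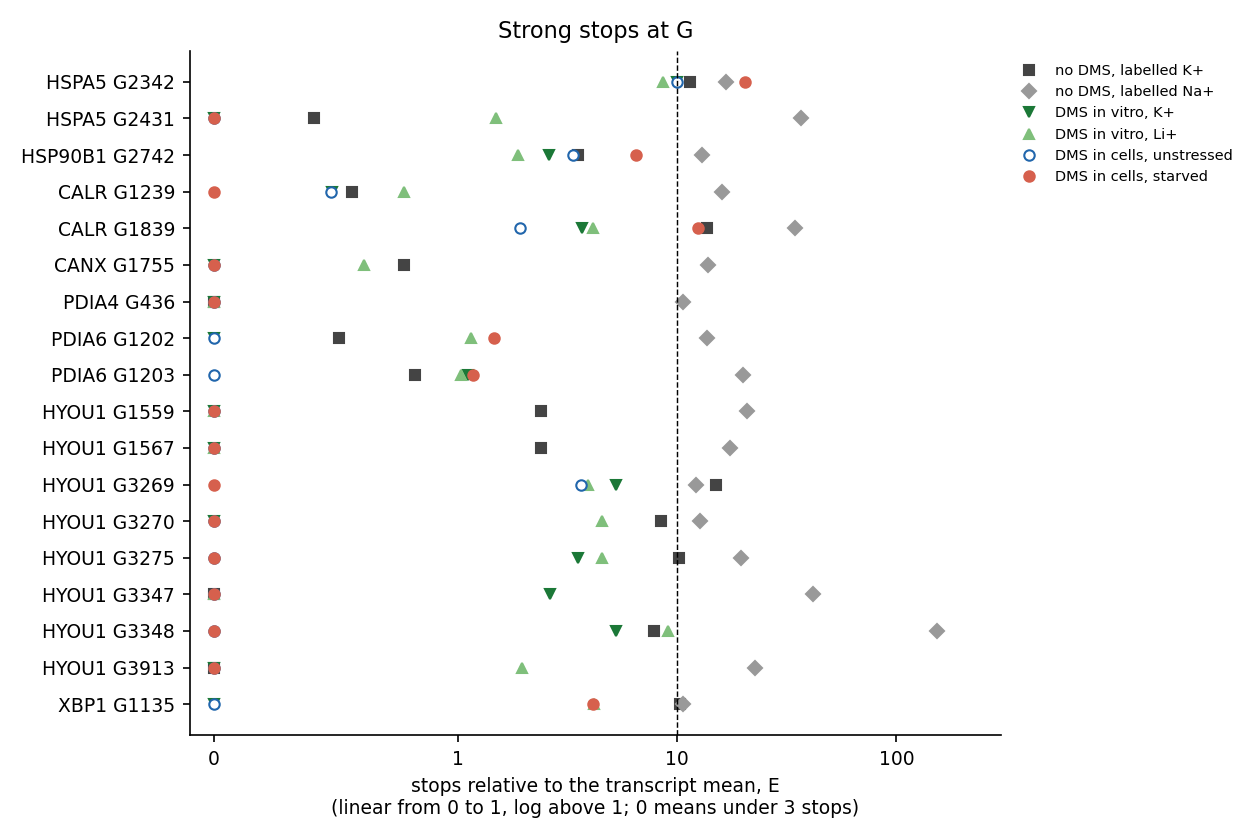
Enrichment E of stops over the transcript mean (horizontal, linear from 0 to 1 and log above) at 18 of the 20 strong stops at G outside PDIA3, in the 6 libraries, with the threshold of 10 as a dashed line. The library labelled Na+ is past the line at every site shown, and the starved library is past it at HSPA5 nt 2342 and CALR nt 1839.

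The last comparison was of these stops in unstressed and starved cells. Of the 42 sites, 15 were listed in both, 12 of them in PDIA3. At CALR nt 1839 E went from 1.92 in unstressed to 12.4 in starved cells, 6.47-fold (3.50 to 12.5). Over all G of CALR, E was 1.60-fold higher. At HSPA5 nt 2342 E went from 10.0 to 20.3, 2.03-fold (1.19 to 3.51), and over all G of HSPA5 it was 1.68-fold higher. At HSP90B1 nt 2742 E went from 3.37 to 6.48, 1.92-fold with an interval of 0.738 to 5.88, and over all G 1.65-fold higher. Of the 3, only the CALR site had an interval above the change of all G in its own mRNA. C1853 of the same 3′ UTR, picked above as the most raised, also went from 4 to 16 stops. Its enrichment over the A/C mean was 0.304 and 3.96. Both positions lie shortly before the end in use of CALR at nt 1882. Whether the rise at nt 1839 is particular to a stop at G was not tested. In PDIA3, 11 of 12 sites were higher in starved cells, 3 with an interval above 1. Over all G of PDIA3 the change was 1.47-fold, and none of the 3 intervals lay above it. With 1 stop added at each site, the median log2 ratio of E was 1.14 over the 42 sites. Over the 1846 strong stops at G of all transcripts past the minimum it was 0.97, so a rise was not particular to the members. The 1.14 became 0.51 with E relative to stops at U and G alone. Most of the 42 sites were not listed in both libraries, so these medians rest in part on the added stop.

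The in vivo folding score, which places E between its in vitro values in Li+ and K+, was computed where neither in vitro library lacked the site and E in K+ was at least 2-fold that in Li+. This held at 2 of the 42 sites, both in PDIA3. Sites not listed in Li+, such as PDIA3 nt 70 with 5 stops in K+, were not scored. At PDIA3 nt 1424 the score was -0.37 in unstressed cells, where no stop was listed, and 1.88 in starved cells with 7 stops, and it rested on 8 and 3 stops in vitro. The 30 nt ending there held 1 run of GG and none of GGG. Both scores lay outside the span of the in vitro values, and whether this site folds was not tested. The score of the other site is not reported here. The strong stops at G of HSPA5, CALR and HYOU1 were not scored.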

How the data were processed

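RT stops were measured in 6 U2OS libraries, 1 per condition. The authors removed duplicate reads, mapped reads by Bowtie (version not given in the sources used here) to an hg19 transcriptome at unique positions without mismatch, and deposited, for every position reaching 3 stops, its count. They also deposited its ratio to a mean count, and in the files each of the 4 bases has its own mean. Transcript means were rebuilt from these means and base composition. Of 15739 RefSeq transcripts, 10433 were matched by listed bases to GENCODE release 44 on GRCh37. The 28 listed bases of CANX that differ from its match lie in its first 119 nt, which were left out. A share is listed stops per 1000000, with an exact interval for a ratio of counts, and Wilson intervals were used for percentages. Shares of at least 1.5-fold, nucleotides of at least 2-fold and E of at least 10 were called. The members, lists and rules were chosen with earlier results of these data known. Named were all members, up to 3 genes of each list with the largest share difference of at least 1.5-fold in the same direction with all stops and with U and G alone, and the 3 transcripts nearest to HSPA5. A few of the transcripts and sites that met these rules are not reported here. Sites and nucleotides singled out beyond this were chosen after their values were seen. Promoter sequences are from RefSeq (GRCh38.p14). The share calculation was tested on simulated data, which it recovered without the listing limit. With the limit, the fold of strongly lowered transcripts came out too large. In all 29 alternatives were listed at the design stage and 5 added after seeing the data. Python 3.11.15, numpy 2.4.6, pandas 2.3.3 and scipy 1.17.1 were used.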

Additional observations from a re-analysis of the deposited data

How the results depend on the processing

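The limits are 1 library per condition, an unsettled assignment of the libraries without DMS, a listing limit of 3 stops that enlarged the fold of the 7 members called lower, and few stops at 5′ ends in treated cells. No paired analysis was possible because each condition has 1 library. Between 7 and 8 of the 10 members were at least 1.5-fold lower in starved cells under every alternative for the share. At 2-fold, 7 were lower, against 24.7% of the 1363 transcripts past the minimum in both in-cell libraries, which only 6 members passed. The median log2 ratio of -1.61 became -1.47 with rebuilt totals, -1.55 with median of ratios scaling, -1.51 relative to the fit on GC content and -1.52 in the last 500 nt. Of 80 gene values under 8 alternatives, 78 were below 0, and CANX (0.16) and XBP1 (0.06) were above it with stops at U and G alone. The share of all transcripts at least 1.5-fold lower was 44.0% with a minimum of 0.25, 44.5% with none and 42.6% with the minimum set in the 4 other libraries. The median difference of the A/C share was -7.30 percentage points with the starved library thinned and -11.8 without strong nucleotides. The members' share of changed A/C nucleotides was 23.5% with the deposited ratio (22.7% over all transcripts), 34.4% from 10 stops (30.6%), 17.9% from 50 stops (18.2%), 29.9% thinned (24.0%), 5.18% at 4-fold (3.84%) and 19.0% with 2 stops added (18.7%). The HSPA5 5′ UTR level relative to coding sequence was, with the deposited ratio, 0.475 in the library labelled K+, 0.472 in that labelled Na+, 0.640 and 0.681 in vitro and 0.239 in unstressed cells. With nucleotides under 3 stops counted as 2 it was 0.472, 0.484, 0.529 in vitro in K+, 0.443 in unstressed and 0.532 in starved cells, and it was 0 with the starved library thinned, so its value in starved cells rests on the limit. Strong stops at G, in the order labelled K+, labelled Na+, in vitro with K+, with Li+, unstressed, starved, numbered 121, 139, 46, 28, 44 and 79 with E of at least 5. With E of at least 20 they numbered 3, 11, 2 (in vitro in K+), 0 (unstressed) and 1 (starved). With the deposited ratio there were 14 and 18 in vitro, 43 in unstressed and 17 in starved cells, and with a minimum of 0.25 there were 12 in unstressed and 22 in starved cells. Cation-dependent stops at G, 3 by the labels, numbered 17 if the labels of the pair are exchanged, and by the labels 19 with E of at least 5, 0 with E of at least 20 and 5 at 1.5-fold, where the exchanged labels gave 37, 10 and 25. The cause of these changes was not tested.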
